A study of Mus musculus with 21 samples.

Results

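The collagen, laminin and integrin genes of the mouse were followed in the embryonic cortex of 3 Pax6 mutants. They were taken by symbol, as the numbered collagen alpha chains (Col), the laminin alpha, beta and gamma chains (Lama, Lamb, Lamc) and the numbered integrin alpha and beta subunits (Itga, Itgb). The array annotation held 71 such genes. A total of 57 of them were tested, 31 of 42 collagens, 9 of 10 laminins and 17 of 19 integrins, among 13850 genes in all. A gene was tested where a probe set naming it alone lay above the 40th percentile of the array on at least 3 arrays, and the probe set with the highest mean stood for the gene.

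Pax6 encodes a transcription factor of cortical progenitors with a paired domain and a homeodomain. The study compared rostral cerebral cortex at embryonic day 14 between mutants and wild-type littermates on 21 arrays, to separate the roles of subdomains of the paired domain. Sey (Small-eye) had 4 mutants and 3 littermate controls of a C57BL/6J x DBA/2J (B6D2F1) background. Leca4 had 3 mutants and 4 controls and Leca2 had 4 mutants and 3 controls, both of 129 S6 background, and each line had its own littermates. The Sey allele truncates the protein, by general knowledge of the allele. Which subdomain the Leca4 and the Leca2 mutation affects is not in the labels, nor is the zygosity of the mutants. No Cre, transgene or treatment is named, and controls carry no mutation per their labels. The labels call the arrays of a group biological replicates. With 3 or 4 arrays a group, precision is limited by their number.

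Collagens are built from 3 alpha chains, which form fibrils, sheets, beaded filaments or short bridges on the surface of fibrils. Laminins join an alpha, a beta and a gamma chain and, with type IV collagen, make up basement membranes. Integrins are receptors of 1 alpha and 1 beta subunit that hold cells to these proteins. In the embryonic cortex, radial glia attach their endfeet to the basement membrane at the pial surface, and blood vessels carry a basement membrane of their own. Much of the fibrillar collagen of the head is made by meningeal and other mesenchymal cells rather than by neural progenitors.

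Values were log2 expression values per probe set, between 2.4 and 14.97, and levels were compared only for the same gene within a line, because array medians differed between lines (6.03 to 6.07 in Sey, 6.25 to 6.26 in Leca4 and 6.11 to 6.18 in Leca2). Pax6 transcript was higher than in littermates by 0.56 ± 0.09 (log2 change ± SE) in Sey, 0.49 ± 0.09 in Leca4 and 0.93 ± 0.09 in Leca2 (adjusted p = 0.000184, 0.00276 and 1.1e-05 in limma). The lines were not balanced for sex, which was read from Xist and Y-linked transcripts. Sey had 1 male and 3 female mutants against 3 male controls, Leca4 1 female of 3 mutants and 1 of 4 controls, and Leca2 2 females of 4 mutants against 3 female controls. Summed levels of 14 radial glia markers, Pax6 among them (15.18 to 15.60 on the log2 scale), and of 11 neuron markers (15.35 to 15.99) were measured over the 21 arrays. All p-values below are adjusted over the 13850 genes in limma, a gene rose or fell where its adjusted p was under 0.05, and an error after a change is the standard error of the fit.

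In Sey mutants 2 of the 57 genes rose, Col18a1 and Col9a3, and 4 fell, Col9a1, Lama1, Col14a1 and Col16a1. In Leca4 mutants 5 rose, Col6a3, Col5a2, Col9a2, Col9a3 and Itgb5, and 4 fell, Col2a1, Lama1, Col9a1 and Col16a1. No member was called in Leca2 in limma, where 7 had an unadjusted p under 0.05. The share of all genes under that unadjusted threshold is not given here. The share called in Sey was 10.5%, against 20.2% of all genes tested (10.7% rose and 9.41% fell). It was 15.8% in Leca4, against 5.62% (3.39% and 2.24%), and 0 of 57 in Leca2, against 0.477%.

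The median log2 change of the 57 genes was -0.02 in Sey, 0.02 in Leca4 and 0.03 in Leca2, against -0.00025, 0.006 and 0.00525 over all genes. The median size of the change without its sign was 0.12, 0.13 and 0.07, against 0.11, 0.08 and 0.06. Of the 31 collagens 5 were called in Sey and 7 in Leca4, of the 9 laminins 1 in each, and of the 17 integrins none in Sey and 1 in Leca4. The arrays of mutants and controls did not overlap for 11 members in Sey (19.3%, against 31% of all genes), 12 in Leca4 (21.1%, against 15.3%) and 8 in Leca2 (14%, against 6.6%). The count of called members in Sey, 6 with all arrays, was 3 without control replicate 1 and 3 without control replicate 3. In Leca4, with 9 called on all arrays, it was 4 without mutant replicate 1 and 5 without control replicate 4. The share of all genes called without these arrays is not given here.

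**Figure D1:**
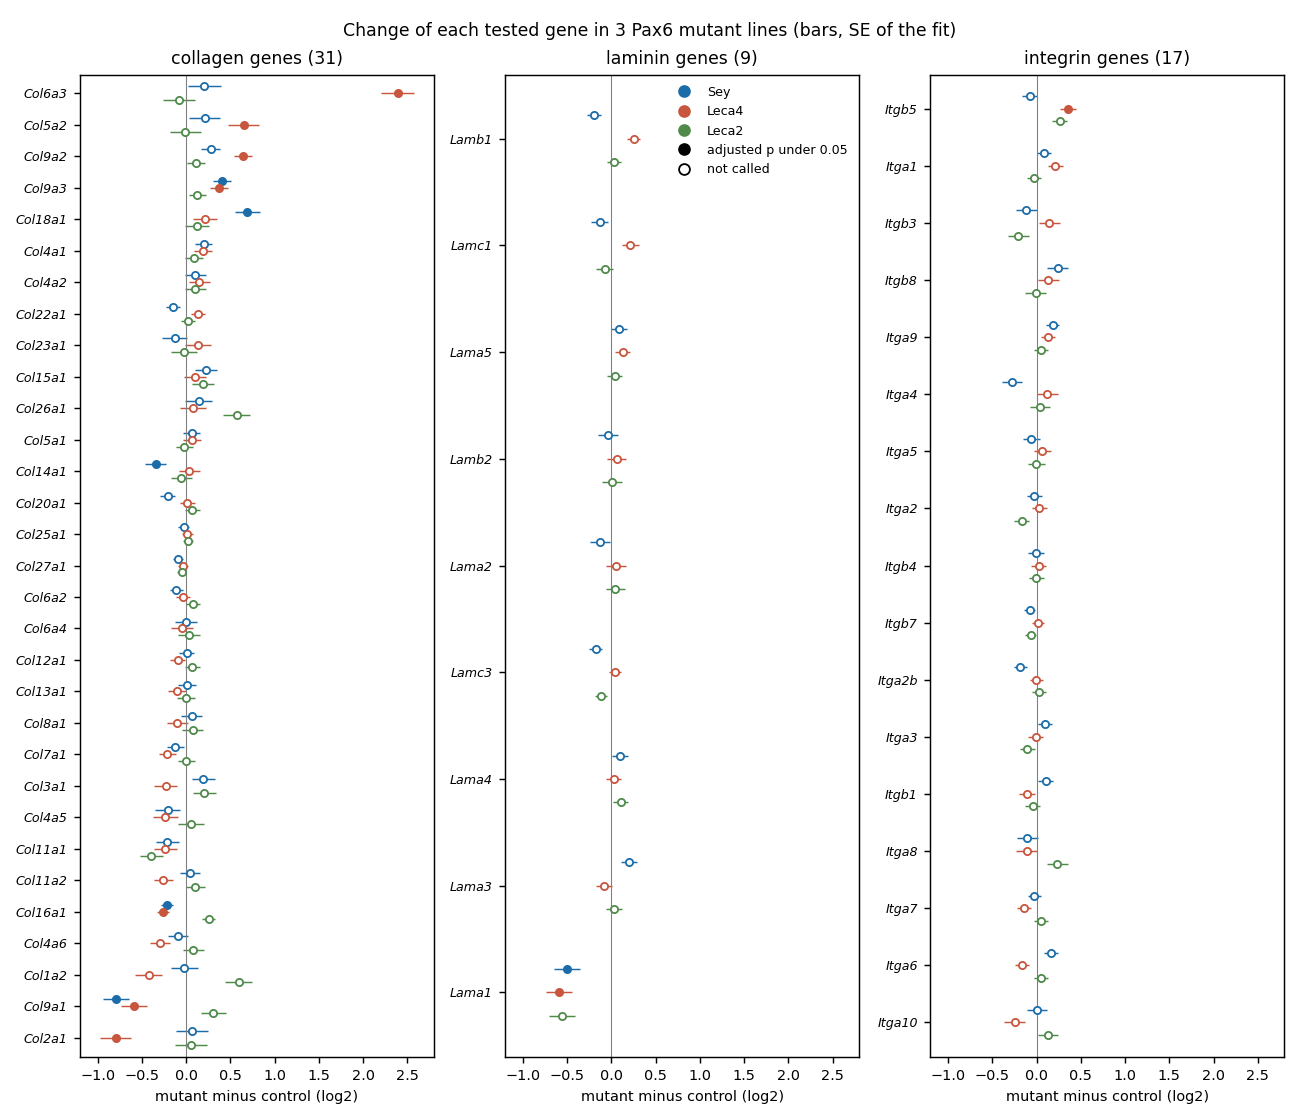
Log2 change (mutant minus littermate controls) of the 57 tested collagen, laminin and integrin genes in Sey, Leca4 and Leca2, with filled points where the adjusted p was under 0.05 in limma. The point that stands farthest from 0 is Col6a3 in Leca4, at 2.39, and no point is filled in Leca2.

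Col6a3 had the highest change of any member in any mutant. It encodes the alpha 3 chain of type VI collagen, which forms beaded filaments between cells and the interstitial matrix. In Leca4 the mutant arrays read 8.75, 9.11 and 8.93, and the control arrays 6.23, 6.81, 6.25 and 6.88. Every mutant array lay well above every control array. The gene was 5.24-fold higher, from 6.54 ± 0.35 (SD, n = 4) to 8.93 ± 0.18 (SD, n = 3), a log2 change of 2.39 ± 0.18 (adjusted p = 9.99e-08 in limma). It kept this call without any one array and under every other setting tried.

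The same gene was not called in the other mutants. In Sey the Col6a3 arrays read 6.21, 6.09, 6.20 and 6.15 in mutants and 6.07, 5.85 and 5.94 in controls, so that the groups stood close together without overlapping (change 0.21 ± 0.18, adjusted p = 0.492 in limma). In Leca2 they read 6.33, 6.51, 6.83 and 6.87 in mutants and 7.14, 6.26 and 6.74 in controls, with full overlap (change -0.08 ± 0.18, adjusted p = 1 in limma). Type VI collagen needs partner chains, and of these Col6a2 changed by -0.11 in Sey, -0.04 in Leca4 and 0.08 in Leca2. Col6a4 changed by -0.05 in Leca4, where all 3 mutant and 3 of the 4 control arrays were at or below the filter level, so a change could be missed. Neither Col6a2 nor Col6a4 was called in any mutant. Col6a1 and Col6a5 did not pass the filter on low values, and the highest of all 21 arrays was 5.10 for Col6a1 and 3.42 for Col6a5.

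The sequence before the start of Col6a3 is shown because this gene carries the strongest change among the members (RefSeq, GRCm38.p6, chr1:90843972-90844221, minus strand). Like each promoter printed here, it holds the 250 bases before the annotated start, written 5′ to 3′ on the strand of the gene in lower case. Capitals mark matches, on either strand, to motifs that were searched in all of them.
Col6a3: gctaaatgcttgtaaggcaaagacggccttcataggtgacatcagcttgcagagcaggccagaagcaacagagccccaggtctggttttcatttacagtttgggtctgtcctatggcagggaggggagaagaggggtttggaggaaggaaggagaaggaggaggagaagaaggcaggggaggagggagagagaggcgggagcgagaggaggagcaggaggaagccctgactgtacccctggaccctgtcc

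Of the 57 members 41 had a promoter in the table, with 45 windows of 300 bases that reach 50 bases past the start, out of 32851 windows of all genes. The motifs were CCAAT, the box bound by NF-Y, GGGCGG, the box bound by Sp1, TATAAA, the TATA box, TTCACGC, the first bases of the consensus of the Pax6 paired domain, and TAATNNNATTA, a palindrome of paired-class homeodomains. Both strands of the 250 bases before the start were searched in every window, and the 50 bases past the start were not. None of these motifs contains another. Of the member windows 14 (31.1%) held CCAAT, 26 (57.8%) GGGCGG and 3 (6.67%) TATAAA, against 33.8%, 32.7% and 12.4% of all windows. TTCACGC was in none of the 45, against 1.03% of all windows, and TAATNNNATTA in none, against 0.463%. The printed window of Col6a3 held none of the 5 motifs.

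Among the fibril-forming collagens, Col5a2 rose and Col2a1 fell, both in Leca4. Col5a2 encodes a chain of type V collagen, which sits inside type I fibrils and limits their width. Its arrays read 9.13, 9.26 and 9.84 in Leca4 mutants and 8.62, 9.06, 8.41 and 8.95 in controls. The lowest mutant array was just above the highest control array. Col5a2 was 1.57-fold higher (9.41 ± 0.38 against 8.76 ± 0.30, SD, n = 3 and 4; change 0.65 ± 0.17, adjusted p = 0.0337 in limma). A second probe set of Col5a2 changed by 0.85 (adjusted p = 0.00722 over the kept probe sets in limma). The partner chain Col5a1 changed by 0.07 in Leca4 and was not called, and its other probe sets changed by 0.51 (adjusted p = 0.0536) and -0.05 (adjusted p = 0.868, over the kept probe sets in limma). Without mutant replicate 3, control replicate 1 or control replicate 3 of Leca4, the change of Col5a2 lay between 0.43 and 0.60 and was not called (adjusted p from 0.0876 to 0.186 in limma). It was also lost with array weights (0.59, adjusted p = 0.0506) and with only the Leca4 groups in the fit (adjusted p = 0.169 in limma). A replicate block, which pairs same-numbered mutants and controls of a line, lost it too.

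Col2a1 encodes the chain of type II collagen, the fibril of cartilage, which early neuroepithelium also transcribes. In Leca4 its arrays read 7.78, 8.0 and 8.23 in mutants and 8.42, 9.16, 8.53 and 9.07 in controls. All mutant arrays were below all control arrays, by little where the groups came closest. Col2a1 was 1.74-fold lower (8.0 ± 0.23 against 8.80 ± 0.37, SD, n = 3 and 4; change -0.80 ± 0.18, adjusted p = 0.00948 in limma). Its change was 0.06 in Sey and 0.05 in Leca2, and neither was called. In Leca4 it was -0.69 without mutant replicate 1 (adjusted p = 0.0652) and had an adjusted p of 0.0902 with only the Leca4 groups in the fit, both in limma.

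The probe sets that stand for the other fibrillar chains were not called in any mutant. Col1a2, a chain of type I collagen, read 6.73, 6.79, 7.04 and 6.63 in Leca2 mutants and 6.23, 6.30 and 6.09 in their controls. All mutant arrays were above the controls (change 0.59 ± 0.15, adjusted p = 0.119 in limma). In Leca4 it read 6.40, 6.61 and 6.31 in mutants and 7.43, 6.68, 6.60 and 6.75 in controls, where the groups overlapped by a narrow margin (change -0.42 ± 0.15, adjusted p = 0.123 in limma). Its partner Col1a1 did not pass the filter, with 2 arrays above the level. Col3a1, the chain of type III collagen, changed by 0.19 in Sey, -0.23 in Leca4 and 0.20 in Leca2, and only in Leca2 did the groups not overlap. Col11a1, which joins type II fibrils in cartilage, changed by -0.21, -0.24 and -0.40, with all Leca2 mutants below their controls (adjusted p = 0.357 in limma). Its second probe set disagreed in size, and was lower in Sey by a called change of -0.62 (adjusted p = 0.00365 over the kept probe sets in limma), with -0.28 in Leca4 and -0.23 in Leca2, not called. Its partner Col11a2 changed by -0.26 in Leca4 and was not called.

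Type IX collagen, a short bridge on the surface of type II fibrils made of the chains of Col9a1, Col9a2 and Col9a3, had all its chains called in Leca4, in opposite directions. Col9a1 fell in both Sey and Leca4. In Sey its arrays read 5.72, 5.89, 6.13 and 6.23 in mutants and 6.60, 6.73 and 7.01 in controls, with no overlap. Col9a1 was 1.73-fold lower there (5.99 ± 0.23 against 6.78 ± 0.21, SD, n = 4 and 3; change -0.79 ± 0.15, adjusted p = 0.000575 in limma). In Leca4 the arrays read 6.74, 6.93 and 6.70 in mutants and 7.22, 7.38, 7.36 and 7.56 in controls, again with no overlap. The gene was 1.5-fold lower (6.79 ± 0.12 against 7.38 ± 0.14, SD, n = 3 and 4; change -0.59 ± 0.15, adjusted p = 0.021 in limma).

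In Leca2 Col9a1 changed by 0.31 and was not called (adjusted p = 0.72 in limma). A second probe set of the gene changed by -0.25 in Sey and -0.20 in Leca4, with adjusted p of 0.0703 and 0.268 over the kept probe sets in limma. The call in Sey held without any one array. In Leca4 it was lost without mutant replicate 1, mutant replicate 3 or control replicate 4 (change from -0.56 to -0.53, adjusted p from 0.0647 to 0.0798 in limma).

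Col9a3 rose in the same mutants in which Col9a1 fell. In Sey its arrays read 8.55, 8.10, 8.30 and 8.34 in mutants and 7.99, 7.93 and 7.82 in controls. In Leca4 they read 8.75, 8.56 and 8.94 in mutants and 8.41, 8.45, 8.40 and 8.24 in controls. Mutants and controls did not overlap in either line, although the gaps were narrow. Col9a3 was 1.32-fold higher in Sey (change 0.41 ± 0.10, adjusted p = 0.0065 in limma) and 1.29-fold higher in Leca4 (0.37 ± 0.10, adjusted p = 0.0346 in limma). A second probe set changed by 0.32 and 0.19 and was not called. With a term for sex the Sey change was 0.30 (adjusted p = 0.0687 in limma). In Leca4 the call was lost without mutant replicate 1 or 3 or without control replicate 1, 3 or 4 (change from 0.28 to 0.38, adjusted p from 0.0573 to 0.174 in limma), with only the Leca4 groups in the fit (adjusted p = 0.102) and for the mean of both probe sets (0.28, adjusted p = 0.0965). The replicate block lost the Leca4 call also.

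Col9a2 rose in Leca4 from a level below the filter. Its arrays read 5.84, 5.55 and 5.72 in Leca4 mutants and 4.89, 5.15, 5.16 and 5.06 in controls, with no overlap. All 4 control arrays and 1 of the 3 mutant arrays did not exceed the filter level, so that the gene was at least 1.08-fold higher, taking each control array at its filter level (adjusted p = 0.00095 in limma for the measured means, 5.71 ± 0.14 against 5.06 ± 0.12, SD, n = 3 and 4). In Sey it changed by 0.28 (adjusted p = 0.0755 in limma) and in Leca2 by 0.11, and neither was called. It was above the filter level on 9 of the 21 arrays.

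The annotation gives Col9a1 more than 1 start, and the sequences before both are shown because this gene fell in Sey and in Leca4 (RefSeq, GRCm38.p6, plus strand). The farther one lies at chr1:24177360-24177609 and held none of the 5 motifs. The nearer one lies at chr1:24194953-24195202 and held CCAAT, in capitals, from 18 bases before the start. The arrays do not assign the change to either start.
Col9a1, first start: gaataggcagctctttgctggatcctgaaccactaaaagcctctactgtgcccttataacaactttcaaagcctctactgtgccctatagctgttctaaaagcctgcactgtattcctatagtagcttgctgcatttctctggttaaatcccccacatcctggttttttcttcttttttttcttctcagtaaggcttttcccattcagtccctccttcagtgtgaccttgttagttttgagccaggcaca
Col9a1, second start: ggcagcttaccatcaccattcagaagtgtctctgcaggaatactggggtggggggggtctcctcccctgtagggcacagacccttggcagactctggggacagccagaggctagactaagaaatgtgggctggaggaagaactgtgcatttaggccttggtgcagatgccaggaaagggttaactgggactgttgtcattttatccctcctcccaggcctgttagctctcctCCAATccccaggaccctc

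Col16a1, Col14a1 and Col22a1 belong to the same interrupted-helix class, whose members lie on or near fibrils. Col16a1 read 6.91, 6.70, 6.64 and 6.87 in Sey mutants and 7.05, 6.97 and 6.98 in controls. In Leca4 it read 7.33, 7.08 and 7.34 in mutants and 7.44, 7.53, 7.54 and 7.53 in controls. All mutants were below all controls in both lines, by narrow gaps. Col16a1 was 1.16-fold lower in Sey (change -0.22 ± 0.07, adjusted p = 0.0386 in limma) and 1.20-fold lower in Leca4 (-0.26 ± 0.07, adjusted p = 0.0376 in limma). In Leca2 the order was the opposite, 7.19, 7.30, 7.23 and 7.36 in mutants above 7.09, 6.95 and 7.01 in controls, without a call (0.25, adjusted p = 0.205 in limma). Calls of Col16a1 were lost in Sey without mutant replicate 2 or 3 or any 1 control (adjusted p from 0.0713 to 0.141) and in Leca4 without mutant replicate 2 or control replicate 2, 3 or 4 (adjusted p from 0.0735 to 0.188, in limma). Both calls were also lost with the replicate block. With no filter the adjusted p was 0.0541 in Sey and 0.0519 in Leca4, with a trend and robust variance 0.0539 and 0.0532, with only the groups compared in the fit 0.0838 and 0.136, and in Leca4 with array weights 0.0591 and with quantile normalization 0.0537, all in limma.

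Col14a1 was called in Sey at a level where every array of both groups was at or below the filter. Its arrays read 4.37, 4.54, 4.41 and 4.56 in mutants and 4.90, 4.57 and 4.98 in controls, with the lowest control just above the highest mutant. The change was -0.35 ± 0.12 (adjusted p = 0.0494 in limma), no fold is given at this level, and a second probe set changed by -0.03. The call was lost without any of the 4 mutants or without control replicate 1 or 3 (adjusted p from 0.0559 to 0.213), with a term for sex (-0.27, adjusted p = 0.216), with no filter (adjusted p = 0.0623), with a trend and robust variance (0.0523), with quantile normalization (0.0544) and for the mean of both probe sets (-0.19, adjusted p = 0.0644, all in limma). The replicate block lost it as well.

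The probe sets of Col22a1 disagreed in Sey. The probe set with the highest mean changed by -0.15 and was not called (adjusted p = 0.184 in limma), whereas the other 2 changed by -0.38 and -0.60 and were called (adjusted p = 0.0218 and 0.0183 over the kept probe sets in limma). No probe set of Col22a1 was called in Leca4 or Leca2.

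Of the basement membrane collagens, Col18a1 rose in Sey and the type IV chains were not called. Col18a1 encodes the core protein of type XVIII collagen, a heparan sulfate proteoglycan of basement membranes whose end piece is endostatin. Its arrays read 9.06, 9.01, 9.01 and 9.14 in Sey mutants and 8.34, 8.43 and 8.33 in controls. Each group was tight and the gap between them was wide. Col18a1 was 1.61-fold higher (9.06 ± 0.06 against 8.37 ± 0.05, SD, n = 4 and 3; change 0.69 ± 0.14, adjusted p = 0.00111 in limma). A second probe set changed by 0.68 (adjusted p = 0.00149 over the kept probe sets in limma). The call held without any one array and under every other setting tried, among them a term for sex (0.59, adjusted p = 0.0138 in limma). In Leca4 and Leca2 the changes were 0.21 and 0.12 and were not called.

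Col4a1 and Col4a2, whose chains form the main type IV network of vessels and pia and which start head to head from a shared promoter region, changed by 0.20 and 0.10 in Sey, 0.19 and 0.15 in Leca4 and 0.09 and 0.10 in Leca2. Col4a5 and Col4a6, a second such pair, changed by -0.21 and -0.09 in Sey, -0.24 and -0.30 in Leca4 and 0.05 and 0.08 in Leca2. None of these was called. Col4a3 and Col4a4 did not pass the filter. Col15a1, the relative of Col18a1 in vessel and muscle basement membranes, changed by 0.22, 0.10 and 0.18 in Sey, Leca4 and Leca2. It was not called, although all Leca2 mutants lay above their controls.

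The sequences before both annotated starts of Col18a1 are shown because its call in Sey held under every setting (RefSeq, GRCm38.p6, minus strand). The window at chr10:77166531-77166780 held CCAAT on the other strand, from 210 bases before the start, and GGGCGG on the other strand at 61, 43 and 33 bases before it. The window at chr10:77113706-77113955 held none of the 5 motifs. The arrays do not assign the change to either start.
Col18a1, first start: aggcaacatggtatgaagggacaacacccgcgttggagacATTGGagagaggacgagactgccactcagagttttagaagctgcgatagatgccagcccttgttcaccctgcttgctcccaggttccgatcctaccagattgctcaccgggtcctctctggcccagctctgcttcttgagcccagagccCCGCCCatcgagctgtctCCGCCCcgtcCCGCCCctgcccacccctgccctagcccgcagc
Col18a1, second start: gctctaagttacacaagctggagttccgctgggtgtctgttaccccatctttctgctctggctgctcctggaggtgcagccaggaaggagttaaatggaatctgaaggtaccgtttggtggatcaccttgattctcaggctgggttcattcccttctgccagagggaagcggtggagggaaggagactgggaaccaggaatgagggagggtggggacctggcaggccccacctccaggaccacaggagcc

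The laminins had 1 called gene. Lama1, whose alpha 1 chain is the laminin of early epithelial and pial basement membranes, fell in Sey and in Leca4. In Leca4 its arrays read 5.83, 6.23 and 5.75 in mutants and 6.46, 6.55, 6.50 and 6.61 in controls, with no overlap. Lama1 was 1.51-fold lower there (5.94 ± 0.26 against 6.53 ± 0.07, SD, n = 3 and 4; change -0.60 ± 0.15, adjusted p = 0.0211 in limma). In Sey the arrays read 4.68, 4.96, 4.76 and 4.70 in mutants and 5.3, 5.14 and 5.39 in controls. The groups did not overlap, but every array was at or below the filter level, so no fold is given (change -0.50 ± 0.15, adjusted p = 0.0198 in limma).

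In Leca2 all mutant arrays of Lama1, at 5.99, 5.62, 5.80 and 5.90, were below the controls, at 6.33, 6.00 and 6.84. 1 control lay close to the mutants, and the change was -0.56 ± 0.15 with an adjusted p of 0.146 in limma. The call in Sey was lost without mutant replicate 1 or control replicate 1 or 3 (adjusted p from 0.0508 to 0.0862) and with a term for sex (-0.43, adjusted p = 0.107). In Leca4 it was lost without mutant replicate 1 or 3 or control replicate 4 (adjusted p from 0.0568 to 0.102), and without Leca2 control replicate 2 it was called in Leca2 also, all in limma. Both the Sey and the Leca4 call were lost with the replicate block.

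Lamb1 and Lamc1, the beta 1 and gamma 1 chains that join the alpha 1 chain in the best known laminin trimer, were not called. Lamb1 read 9.44, 9.45 and 9.59 in Leca4 mutants and 9.23, 9.25, 9.21 and 9.28 in controls, with all mutants higher (change 0.25 ± 0.08, adjusted p = 0.0646 in limma). In Sey it read 8.64, 8.77, 8.46 and 8.56 in mutants and 8.91, 8.75 and 8.76 in controls, with mostly lower mutants and 1 overlap (-0.20 ± 0.08, adjusted p = 0.0779 in limma). Other probe sets of Lamb1 changed by 0.15 and 0.02 in Leca4 and by -0.31 and -0.29 in Sey, and were not called. Lamc1 changed by -0.13, 0.21 and -0.07 in Sey, Leca4 and Leca2. A second probe set of Lamc1 disagreed, with changes of 0.22, 0.01 and -0.24, and was not called either. Lamc3, another gamma chain, changed by -0.18 in Sey, where all mutants were below all controls (adjusted p = 0.083 in limma). Lamb2 changed by -0.04, 0.06 and 0.01, and Lama2, Lama3, Lama4 and Lama5 changed by at most 0.20 in size in every mutant. Lamb3 did not pass the filter.

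The integrins had 1 called gene, in Leca4. Itgb5, the beta 5 subunit, pairs with the alpha V subunit as a receptor for vitronectin. Its arrays read 7.92, 8.02 and 7.80 in Leca4 mutants and 7.27, 7.65, 7.73 and 7.6 in controls. The mutants were all higher, with a narrow gap to the nearest control. Itgb5 was 1.28-fold higher (7.91 ± 0.11 against 7.56 ± 0.20, SD, n = 3 and 4; change 0.35 ± 0.09, adjusted p = 0.0209 in limma). In Leca2 it read 7.39, 7.59, 7.56 and 7.45 in mutants and 7.27, 7.31 and 7.13 in controls, again with all mutants higher, but was not called (0.26 ± 0.09, adjusted p = 0.358 in limma). In Sey it changed by -0.08.

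The other 3 probe sets of Itgb5 changed by 0.52, 0.38 and 0.46 in Leca4 and by 0.55, 0.39 and 0.55 in Leca2, and none of them was called over the kept probe sets. The call in Leca4 was lost without mutant replicate 1 or 2 (change 0.30 to 0.35, adjusted p from 0.0658 to 0.0907 in limma) and with only the Leca4 groups in the fit (adjusted p = 0.174 in limma). The replicate block lost this call of Itgb5 too. Its partner Itgav, named by a letter and so no member, changed by -0.15 in Sey, 0.09 in Leca4 and 0.01 in Leca2 and was not called. Its ligand Vtn was not called in any mutant either.

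The promoter of Itgb5 is shown because it is the called integrin (RefSeq, GRCm38.p6, chr16:33829415-33829664, plus strand). GGGCGG stood at 199, 63 and 34 bases before the start, on the plus strand at 63 and on the other strand at the rest.
Itgb5: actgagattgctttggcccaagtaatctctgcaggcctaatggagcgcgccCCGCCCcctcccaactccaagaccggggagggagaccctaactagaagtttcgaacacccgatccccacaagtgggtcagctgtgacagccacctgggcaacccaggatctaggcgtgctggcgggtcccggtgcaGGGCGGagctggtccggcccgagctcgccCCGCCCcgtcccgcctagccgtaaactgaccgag

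Itgb1 and Itga6, which together form a laminin receptor of radial glia, and Itgb8, which with the alpha V subunit activates TGF-beta, were not called. Itgb1 changed by 0.10 in Sey, -0.11 in Leca4 and -0.05 in Leca2. Itga6 changed by 0.16, -0.17 and 0.05, with no overlap between mutants and controls in Sey, where mutants were higher, and in Leca4, where they were lower. Itgb8 changed by 0.24, 0.13 and -0.01. Itga1, a collagen receptor subunit, changed by 0.09 in Sey and 0.21 in Leca4 with all mutants above all controls, and Itga9 by 0.18 in Sey in the same way. Itga3, which pairs with Itgb1 as a laminin receptor, changed by 0.09, -0.01 and -0.11, and Itgb3, the other common partner of Itgav, by -0.12, 0.14 and -0.21. Itgb2 and Itgb6 did not pass the filter.

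**Figure D2:**
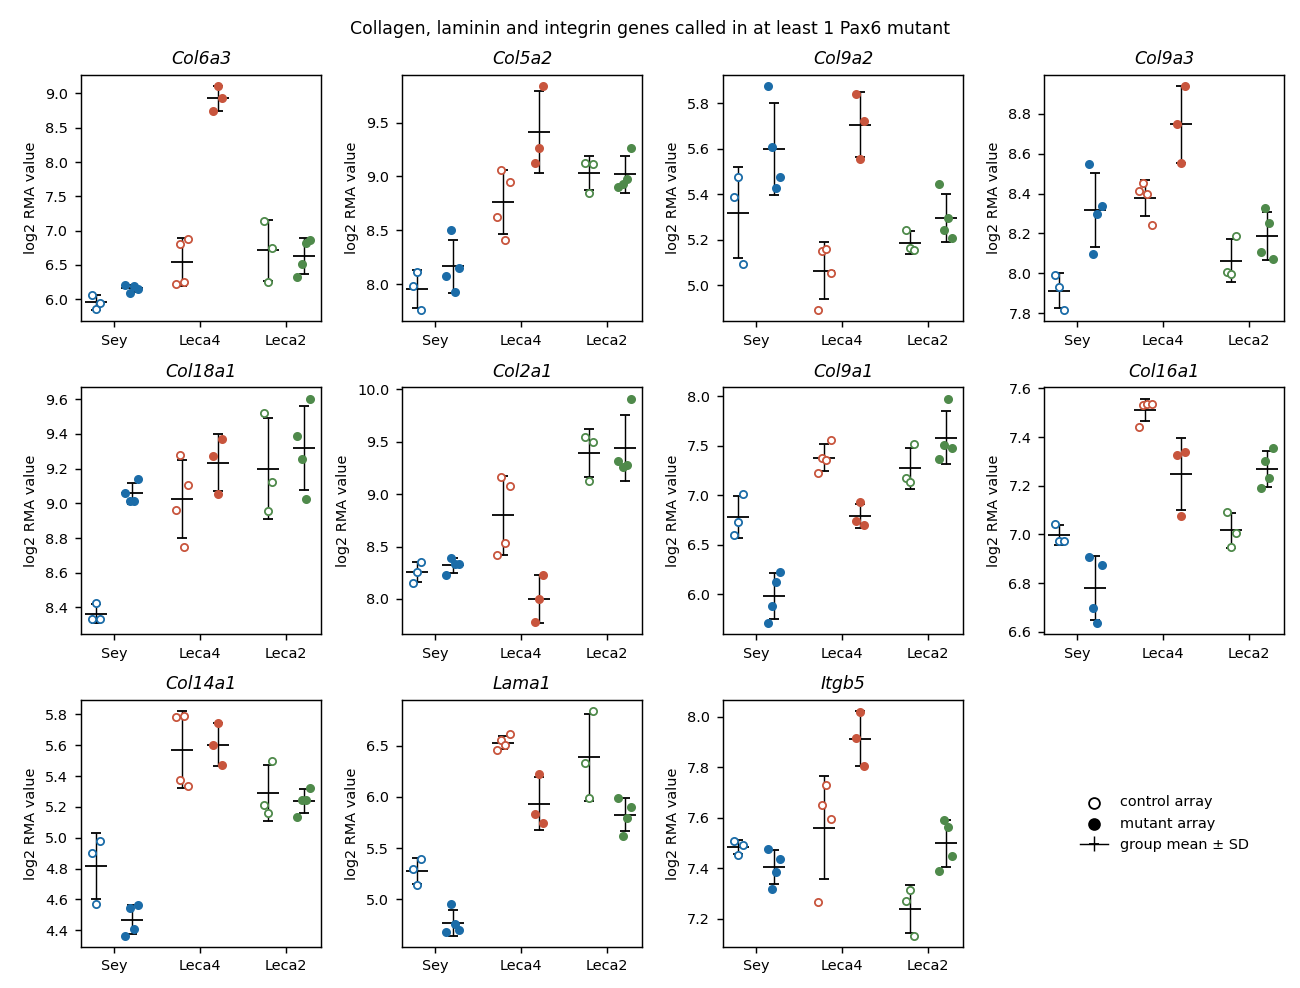
Log2 expression value on each of the 21 arrays for the 11 collagen, laminin and integrin genes called in at least 1 mutant, with filled points for mutants and open points for littermate controls of Sey, Leca4 and Leca2, and bars for each group's mean ± SD. The 3 Leca4 mutant arrays of Col6a3 sit between 8.75 and 9.11, above the 4 controls between 6.23 and 6.88, and the mutant arrays of Lama1 lie below the controls in every line, called in Sey and Leca4.

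Members that were not called had changes of the following sizes. In Sey the 51 such genes lay between -0.28 (Itga4) and 0.28 (Col9a2), 41 of them within 0.2 of 0. In Leca4 the 48 lay between -0.42 (Col1a2) and 0.25 (Lamb1), 36 of them within 0.2. In Leca2 all 57 lay between -0.56 (Lama1) and 0.59 (Col1a2), 47 of them within 0.2. The ends of the Leca2 range were as large as several called changes in Sey and Leca4. Col26a1 was near the upper end in Leca2, with a change of 0.57 (adjusted p = 0.148 in limma) and all mutants above all controls. The other genes that did not pass the filter were Col10a1, Col17a1, Col19a1, Col24a1, Col5a3 and Col8a2, and over all 14 the highest array was between 3.24 and 5.65.

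**Figure D3:**
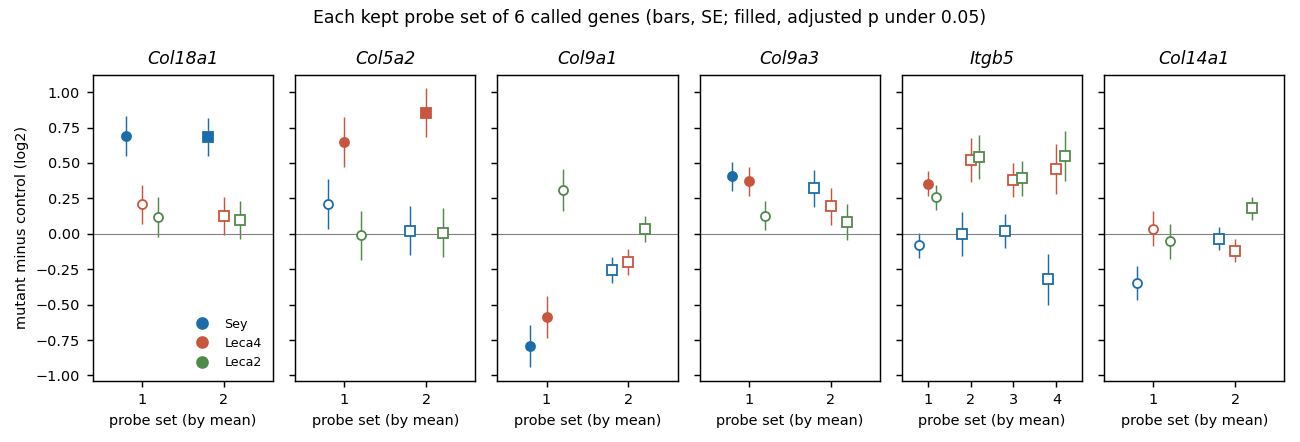
Log2 change (mutant minus littermate controls, with the standard error) of each kept probe set of 6 called genes that have more than 1, with circles for the probe set of the highest mean, squares for the others, and filled symbols where the adjusted p over the kept probe sets was under 0.05 in limma. Both probe sets of Col18a1 in Sey (0.69 and 0.68) and of Col5a2 in Leca4 (0.65 and 0.85) are filled, whereas those of Col9a1 in Sey lie at -0.79 and -0.25.

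The differences between the changes of 2 mutants, each against its own controls, were tested in the same model. The change of Col6a3 in Leca4 differed from that in both other mutants. Its change in Leca4 exceeded that in Leca2 by 2.47 ± 0.26 (adjusted p = 1.13e-05 in limma), and its change in Sey minus that in Leca4 was -2.18 ± 0.26 (adjusted p = 1.45e-05 in limma). Col9a1 and Col16a1 fell in Sey and Leca4 but not in Leca2, and the difference from Leca2 was called in both cases. For Col9a1 it was -0.90 ± 0.21 for Leca4 minus Leca2 (adjusted p = 0.0242) and -1.10 ± 0.21 for Sey minus Leca2 (adjusted p = 0.00254, both in limma). For Col16a1 the same differences were -0.52 ± 0.10 (adjusted p = 0.00831) and -0.47 ± 0.10 (adjusted p = 0.00761, both in limma).

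Col1a2, called in no mutant on its own, differed by -1.01 ± 0.21 between Leca4 and Leca2 (adjusted p = 0.0126 in limma). Between Sey and Leca4, Col2a1 differed by 0.86 ± 0.25 (adjusted p = 0.0278 in limma), Lamb1 by -0.45 ± 0.11 (adjusted p = 0.00929) and Itgb5 by -0.43 ± 0.12 (adjusted p = 0.0259). The difference of Col2a1 between Leca4 and Leca2 was -0.85 and missed the threshold (adjusted p = 0.0816 in limma). In all, 4 members were called for Leca4 minus Leca2 (2.38% of all genes were), 4 for Sey minus Leca4 (12.8%) and 2 for Sey minus Leca2 (6.69%). For Lama1 and Col9a3, called in Sey and Leca4 but not in Leca2, no difference between mutants was called.

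Some of these differences lay near the threshold and were lost without any 1 of several arrays. That of Col9a1 between Leca4 and Leca2 was lost without Leca4 mutant replicate 1 or 3, Leca4 control replicate 4 or Leca2 control replicate 1 or 2 (adjusted p from 0.0529 to 0.0752 in limma). That of Col2a1 was lost with a term for sex (0.69, adjusted p = 0.0816) and without Sey control replicate 1 or 2, Leca4 mutant replicate 1 or 2 or Leca4 control replicate 2 or 4. That of Itgb5 was lost without Sey control replicate 1 or 3 or Leca4 mutant replicate 2 (adjusted p from 0.0532 to 0.0772 in limma). The 4 calls for Sey minus Leca4 became 2 without Sey control replicate 1 and 2 without Leca4 mutant replicate 2. With the replicate block, Lamb1 and Itgb5 for Sey minus Leca4 and Col1a2 for Leca4 minus Leca2 were lost. The differences of Col16a1 from Leca2 were lost with it as well.

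**Figure D4:**
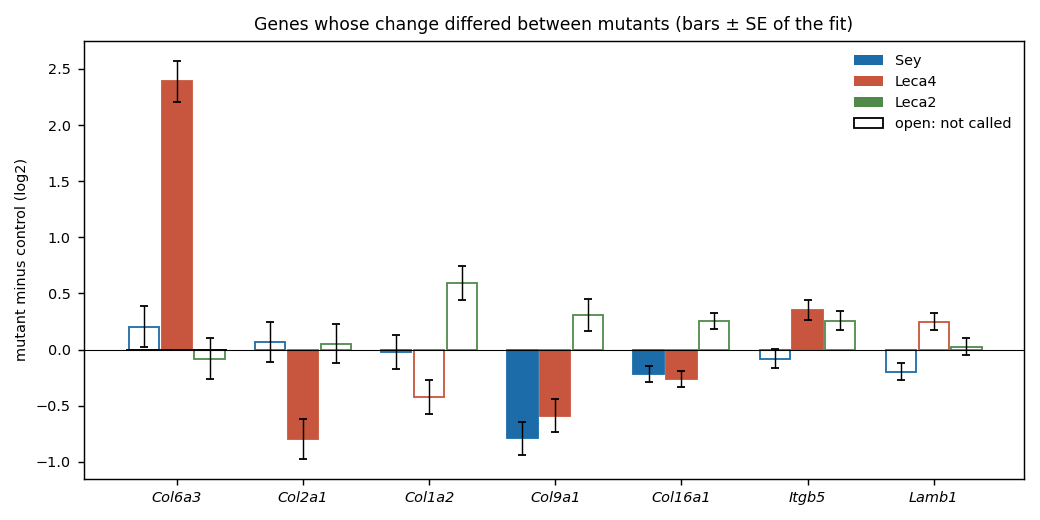
Log2 change (mutant minus littermate controls, bars with the standard error of the fit) in Sey, Leca4 and Leca2 for the 7 genes whose change differed between mutants at an adjusted p under 0.05 in limma, with open bars where the change itself was not called. Col6a3 reaches 2.39 in Leca4 against 0.21 in Sey and -0.08 in Leca2, and Col1a2 lies at -0.42 in Leca4 and 0.59 in Leca2 with open bars.

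Genes that act with the members were read from lists of general knowledge. Of all genes tested, 10.7% rose and 9.41% fell in Sey, 3.39% and 2.24% in Leca4, and 0.477% were called in Leca2. The counts in these lists and in the marker lists below are to be read beside those shares. Whether a list differed from all genes was not tested. Of 22 tested genes for collagen folding, modification and crosslinking, 1 fell in Sey, Adamts3, which trims type II procollagen (-0.75 ± 0.15, adjusted p = 0.000992 in limma). In Leca4 4 rose and 2 fell. Sparc, a collagen-binding protein, rose by 0.86 ± 0.08, Colgalt2, which adds galactose to collagen, by 0.80 ± 0.09, Plod1, a lysyl hydroxylase, by 0.46 ± 0.07, and Serpinh1, the collagen chaperone, by 0.45 ± 0.12. P3h2, a prolyl hydroxylase, changed by -0.36 ± 0.10 and Colgalt1 by -0.27 ± 0.08 (adjusted p of these 6 genes from 9.82e-07 for Sparc to 0.0485 for Colgalt1 in limma). None was called in Leca2, and the list's median change was 0.02, 0.06 and 0.0073 in Sey, Leca4 and Leca2.

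Of 29 tested partners in basement membrane and matrix, 8 rose and 5 fell in Sey, where 10.7% and 9.41% of all genes did. In Leca4 10 rose and 2 fell, against 3.39% and 2.24% of all genes. Fbln1, a matrix glycoprotein, rose by 1.12 ± 0.08 in Sey and 0.62 ± 0.08 in Leca4. Nid2, which links laminin to type IV collagen, rose by 0.81 ± 0.14 and 1.16 ± 0.14 (adjusted p = 0.000266 and 2.21e-05 in limma). In Sey Sdc1 rose by 0.43 ± 0.08 and Sdc3 changed by -0.71 ± 0.08, both heparan sulfate proteoglycans of the cell surface. In Leca4 Npnt, a ligand of the alpha 8 beta 1 integrin, rose by 2.09 ± 0.09 and Ntn4, a netrin that binds laminin, changed by -1.38 ± 0.11 (adjusted p = 3.87e-11 and 2.29e-07 in limma). Itga8, the receptor subunit of Npnt, changed by -0.11 in Leca4 and was not called. All 3 mutant and all 4 control arrays of Itga8 were at or below the filter level there, so a change could be missed. The list's median change was 0.02 in Sey, 0.15 in Leca4 and 0.00275 in Leca2, where no gene was called.

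Among 29 tested genes of the machinery that ties integrins to actin, 3 fell in Sey, Bcar1 (-0.40 ± 0.05), Vcl (-0.48 ± 0.09) and Fyn (-0.25 ± 0.05), and Actn1 rose in Leca4 (0.36 ± 0.07). Of 17 tested matrix proteases and inhibitors, 3 rose and 3 fell in Sey, where 10.7% and 9.41% of all genes did. In Leca4 1 rose and 1 fell, against 3.39% and 2.24% of all genes. Mmp17, a membrane-anchored protease, changed by -0.87 ± 0.10 in Sey and -0.36 ± 0.10 in Leca4 (adjusted p = 6.36e-06 and 0.0498 in limma). In Sey the inhibitors Timp1 and Reck rose by 0.56 ± 0.11 and 0.45 ± 0.13 and the protease Adam17 by 0.19 ± 0.06, and in Leca4 the protease Adamts1 rose by 0.53 ± 0.09. No gene of either list was called in Leca2. Of the integrins named by a letter, 3 of 6 were tested (Itgav, Itgal and Itgae) and none was called in any mutant.

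The tissue also held markers of cells that make these proteins outside the neural epithelium, and in a whole-tissue sample fewer cells of a type and less RNA per cell cannot be told apart. Of 8 tested meninges and mesenchyme markers out of 15, Crabp2 and Prrx1 rose in Sey (1.78 and 1.46) and in Leca4 (1.17 and 0.95), and none was called in Leca2. The median change of the 8 markers was 0.31 in Sey and -0.01 in Leca4. Their summed log2 level was 12.83 to 12.91 in Sey controls and 13.05 to 13.20 in mutants, and 12.72 to 12.86 in Leca4 controls and 12.73 to 12.96 in mutants. A summed level mostly follows the markers with the highest signal, and which of the 8 these were is not given here. The mean log2 value of the 8 markers was far lower, 7.07 to 7.21 in Sey controls and 7.50 to 7.72 in mutants. In Leca4 this mean was 7.41 to 7.61 in controls and 7.59 to 7.85 in mutants. The meningeal markers Foxc2, Foxd1, Lum, Ogn, Aldh1a2, Twist1 and Gjb2 did not pass the filter.

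Of 11 pericyte and smooth muscle markers, Notch3 and Abcc9 rose in Leca4 (0.47 and 0.54), with a summed level of 11.51 to 11.65 in controls and 11.60 to 11.80 in mutants. The median change of the 11 markers was -0.03 in Leca4 and -0.15 in Sey. In Sey no marker of this list was called, and the summed level was 11.53 to 11.61 in controls and 11.37 to 11.44 in mutants. Of 17 endothelial markers none was called in Leca4 (12.38 to 12.45 in controls, 12.31 to 12.48 in mutants), and in Sey 2 rose, Ets1 and Emcn, and 1 fell, Slc2a1 (11.97 to 12.11 and 11.95 to 12.05). Of 11 microglia markers 4 rose in Leca4, C1qa, C1qc, Csf1r and Cx3cr1, with a summed level of 10.86 to 11.02 in controls and 11.19 to 11.34 in mutants. In Sey 5 of 14 radial glia markers rose and 2 fell, against 10.7% and 9.41% of all genes. The summed level of these 14 markers was 15.18 to 15.22 in controls and 15.24 to 15.42 in mutants, with no overlap. Pax6, the mutated gene itself, was among the 5 that rose, and its signal was part of the summed level. In Sey also 9 of 11 neuron markers fell (15.70 to 15.72 in controls, 15.35 to 15.42 in mutants). No erythroid or choroid plexus marker was called in any mutant. In the list for skin, muscle and cartilage of the head, 7 of 13 markers were tested and Krt5 fell in Sey (-0.27). Beside the fall of Col2a1 in Leca4, the cartilage marker Acan changed by 0.0035, Matn1 did not pass the filter, and the summed level of the list was 8.79 to 9.0 in controls and 8.88 to 8.94 in mutants. The part of these cell types in the changes of Col6a3, Col5a2, Col18a1 and the other members was not tested.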

How the data were processed

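Total RNA of rostral cortex was labelled with biotin and hybridized to Affymetrix arrays, 1 array per sample. The deposited values are log2 expression values, made by the authors with RMA per the submitters' processing notes. For its version and settings and for the genome build, a statement is not given in the sources used here. Quantiles of the columns nearly coincide within a line and differ between lines, which is why each mutant was compared only with its own littermates.

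Of 45101 probe sets 34945 named 1 gene and were no controls. Those above the 40th percentile of the array (5.37 to 5.6) on at least 3 arrays were kept (25140), and the probe set with the highest mean stood for each of 13850 genes. Symbols were those of the platform annotation, and updating them changed no member. With limma 3.58.1 in R 4.3.3, 1 linear model of the 6 groups over 21 arrays (15 residual and 3.54 prior degrees of freedom) gave two-sided p-values, adjusted by Benjamini-Hochberg over all genes per contrast. The labels state no test. The pipeline was tested on simulated data.

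All members called in a mutant or in a difference between mutants are named. Others are named where they share a trimer or receptor with a called one, are among the 3 highest of their family by mean value (a rule for naming only, not a comparison of levels) or did not overlap between groups, with up to 4 genes of each related list per mutant by smallest p. Col22a1, Acan, Matn1, Vtn, Itga3, Itgb3, Itga8 and the remaining type IV, XI and laminin chains are named outside this rule, after their values were seen. Serpinh1 and Colgalt1 are also named outside it, as the other called genes of their list in Leca4. The members and the gene lists were chosen with earlier results of these data known. The alternatives were other filters, probe set rules, normalizations, variance models, thresholds, a replicate block, a term for sex and leaving out each array. No protein sequences were used here.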

Additional observations from a re-analysis of the deposited data

Results flagged for a closer look

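In groups of 4 arrays, 2 values of the 13 genes named for a call stood far from the rest of their group by Dixon's test (39 groups looked at, of which chance would flag about 1 in 20). Col16a1 read 7.44 in Leca4 control replicate 1, against 7.53 to 7.54 in the other 3 controls. Col2a1 read 9.91 in Leca2 mutant replicate 4, against 9.26 to 9.32 in the other 3 mutants.

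The changes of 7 genes differed between mutants in limma. For Leca4 minus Leca2 the difference of the log2 changes was 2.47 for Col6a3 (adjusted p = 1.13e-05), -1.01 for Col1a2 (0.0126), -0.90 for Col9a1 (0.0242) and -0.52 for Col16a1 (0.00831). For Sey minus Leca4 it was -2.18 for Col6a3 (adjusted p = 1.45e-05), 0.86 for Col2a1 (0.0278), -0.45 for Lamb1 (0.00929) and -0.43 for Itgb5 (0.0259). For Sey minus Leca2 it was -1.10 for Col9a1 (adjusted p = 0.00254) and -0.47 for Col16a1 (0.00761).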

How the results depend on the processing

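Of the single changes and differences, 316 kept their side of the threshold under another setting, 44 lost it and 5 gained it, and none changed sign. Leaving out each array in turn gave 243, 49 and 2. The counts of members called in Sey, Leca4 and Leca2 were 6, 9 and 0, and the counts for the differences Leca4 minus Leca2, Sey minus Leca4 and Sey minus Leca2 were 4, 4 and 2. Without 1 array they ranged from 3 to 9, 4 to 8, 0 to 1, 3 to 5, 2 to 6 and 2 to 3. The shares of all genes called in those fits are not given here. With only the groups compared in the fit, 4 were called in Leca4 (2.89% of all genes) and 4 for Sey minus Leca2 (6.16%). Array weights gave 12 in Sey (26.7% of all genes, against 20.2%) and 2 in Leca2 (0.874%; Col16a1 and Col26a1). An adjusted p under 0.10 gave 11 in Sey (26.3%) and 4 for Sey minus Leca2 (10.2%). A change of at least 1.4-fold left 3 in Sey (7.63%), 2 for Sey minus Leca4 (7.53%) and 1 for Sey minus Leca2 (4.54%). With p-values adjusted over every kept probe set, added after seeing the data, the probe set with the highest mean was called for 4, 8 and 0 members in Sey, Leca4 and Leca2, and any probe set for 6, 8 and 0, with Col11a1 and Col22a1 added in Sey. The cause of these shifts was not tested. With the replicate block the counts were 4 in Sey (14.6%), 4 in Leca4 (3.25%) and 0 in Leca2, and 2 for Leca4 minus Leca2 (1.07%), 2 for Sey minus Leca4 (7.33%) and 1 for Sey minus Leca2 (4.04%). Mutants and controls with the same number were treated as unpaired in the main fit. The labels do not state whether the numbers pair the samples. The deviations of same-numbered mutants and controls correlated with r from -0.44 to 0.338 over 9 pairs, 4 of them over 0.1. Called genes at or below the filter level, Col14a1 and Lama1 in Sey and Col9a2 in Leca4 controls, are limited by signal over background. So are members without a call, among them Itga8, Col6a4, Lama3 and Itgb3 in Leca4, where most or all arrays were at or below that level.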
